A study of Mus musculus with 8 samples.

Results

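The EIF4 family and the 4E-binding proteins are described here in activated mouse B cells with and without a conditional deletion of Eif4a1. The group was chosen by gene symbol and holds 10 of the 53242 genes in the deposited tables, namely the helicases Eif4a1, Eif4a2 and Eif4a3, the helicase cofactor Eif4b, the cap-binding proteins Eif4e and Eif4e2, the scaffold proteins Eif4g2 and Eif4g3, and the 4E-binding proteins Eif4ebp1 and Eif4ebp2. Splenic B cells of C57BL/6 mice aged 8 to 12 weeks were cultured for 24 h with 40 ng/ml IL4 on irradiated CD40LB cells, a fibroblast feeder line that expresses CD40 ligand and BAFF, and the feeder cells were then depleted with beads. The 4A1 KO B cells carried Eif4a1 fl/fl and CD23-cre, and the control B cells carried Eif4a1+/+ and CD23-cre, so both genotypes expressed the recombinase, whose activity starts in splenic immature B cells. Each genotype had 4 libraries, of which replicates 1 (male) and 2 (female) belonged to batch A, and replicates 3 (male) and 4 (female) to batch B. The study left out replicate 1 of both genotypes for low viability, so tests compare replicates 2 to 4 (n = 3 per genotype) and levels are shown for all 8 libraries in the order of replicates 1 to 4. The libraries of a genotype came from separate mice, as the study's methods state.

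Translation of most mRNAs starts when the EIF4F complex assembles on the 5′ cap. EIF4E binds the cap, EIF4G is the scaffold, and EIF4A is a DEAD-box RNA helicase that unwinds structure in the 5′ leader with help from EIF4B and EIF4H. The 4E-binding proteins compete with EIF4G for EIF4E until mTORC1 phosphorylates them. EIF4A2 is a close paralogue of EIF4A1 in translation, whereas EIF4A3 belongs to the exon junction complex, which marks spliced mRNA in the nucleus. B cells enlarge and raise protein synthesis when they are activated through CD40 and the IL4 receptor.

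The floxed part of Eif4a1 is shown because it limits what the gene's total can measure. Eif4a1 lies on the minus strand of chromosome 11 (GRCm39, chr11:69557762-69563249), and exons 2 to 4 of its canonical transcript (chr11:69560959-69561802) are flanked by loxP sites. Together the 3 exons hold 322 of 1775 bases (18.1%), all of them coding. Their length leaves a remainder of 1 after division by 3, so their removal shifts the reading frame. Each is printed 5′ to 3′ on the transcript strand, and the capitals in exon 4 mark the codons of the GxGKT nucleotide-binding motif.
Eif4a1 exon 2: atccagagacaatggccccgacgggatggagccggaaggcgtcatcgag
Eif4a1 exon 3: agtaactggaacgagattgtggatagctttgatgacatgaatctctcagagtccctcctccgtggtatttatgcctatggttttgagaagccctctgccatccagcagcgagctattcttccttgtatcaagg
Eif4a1 exon 4: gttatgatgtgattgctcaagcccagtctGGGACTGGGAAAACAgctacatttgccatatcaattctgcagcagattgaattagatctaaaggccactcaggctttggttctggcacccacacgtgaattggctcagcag
The deposited values cover the whole gene, so the 81.9% of the transcript outside these exons is counted in both genotypes, and the gene's total does not measure the deletion itself.

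The paralogues are shown at their DEAD box, the motif that names this helicase family, in windows of 60 coding bases with the codons of D-E-A-D in capitals. In Eif4a1 these codons lie in exon 6, outside the floxed part.
Eif4a1: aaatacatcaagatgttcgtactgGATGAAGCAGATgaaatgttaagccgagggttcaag
Eif4a2: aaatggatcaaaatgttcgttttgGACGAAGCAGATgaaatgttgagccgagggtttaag
Eif4a3: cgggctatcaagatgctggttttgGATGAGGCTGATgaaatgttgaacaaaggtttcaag
Over the aligned coding sequence, Eif4a1 and Eif4a2 were identical at 77.8% of bases and 90.1% of residues. Eif4a3 matched Eif4a1 at 66.4% of bases and 66.9% of residues. No stretch of 50 bases, the length of a read, in the Eif4a2 transcript occurred in Eif4a1, but retrocopies of these genes are closer, as described for Eif4a1 next.

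A processed pseudogene, Eif4a-ps4 on chromosome 1 (chr1:60743091-60744308), is almost the same as the Eif4a1 mRNA. An alignment of the Eif4a1 transcript to this locus and its flanks held 1770 bases, of which 1765 were identical (99.72%). Only 1 of the 5 substitutions lies in the coding sequence, G551A, counted from the first base of the transcript, with the Eif4a1 base first. The windows of 31 bases around it are printed with this base in capitals.
Eif4a1: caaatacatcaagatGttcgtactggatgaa
Eif4a-ps4: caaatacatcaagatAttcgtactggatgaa
Of the 1169 windows of 50 bases, the read length, in the pseudogene's row, 1119 (95.7%) also occur in the Eif4a1 transcript, of whose own windows they are 64.8%. For the other 9 genes, the share of windows found in any other gene of the tables was between 0% (Eif4e2, Eif4g3 and Eif4ebp2) and 24.4% (Eif4a3), with 12.6% for Eif4a2. The treatment of multi-mapped reads is not given in the sources used here, so the Eif4a1 values are uncertain by the part that could be assigned to Eif4a-ps4, and both rows are given.

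Levels are given in TPM, in which each gene is scaled by its length and each library to the same total. Between 31727557 (4A1 KO replicate 1) and 43210858 reads were counted per library, and each of the 10 genes had at least 1935 reads in every library. The B cell markers Cd79a, Cd79b, Ms4a1, Pax5, Cd22 and Fcer2a, 6 in all, were detected in every library and summed to 4759 to 5514 TPM in control and 5009.6 to 5073 TPM in 4A1 KO. This sum is carried by Fcer2a, which encodes CD23 and rose from 2994 ± 327 to 3639 ± 128 TPM (SD, n = 3; log2 fold change of the counts 0.30, edgeR adjusted p = 0.00116), whereas 4 of the others fell. Cd79b, a chain of the B cell receptor complex, had a log2 fold change of -0.89, Cd22 -0.76, Cd79a -0.67 and Pax5 -0.23 (largest adjusted p = 0.00229), and Ms4a1 did not pass at 0.07 (adjusted p = 0.251). The 10 fibroblast markers, which could come from feeder cells with an intact Eif4a1, summed to 4.06 to 18.6 TPM in control and 6.40 to 11.4 TPM in 4A1 KO, with 8 detected in all libraries and Postn at 0 in all. The 5 T cell markers summed to at most 0.183 TPM. The 5 myeloid markers summed to 10.5 to 15.2 TPM in control and 15.6 to 18.4 TPM in 4A1 KO, and the 4 plasma cell markers to 165 to 204 TPM in control and 81.8 to 117 TPM in 4A1 KO. The plasma cell sum is carried by Xbp1, which fell with a log2 fold change of -0.94 in the counts (edgeR adjusted p = 1.02e-05). Sdc1 and Prdm1 also fell, at -1.22 and -0.64 (adjusted p = 8.47e-05 and 0.00114), while Jchain did not pass at 0.21 (adjusted p = 0.692). The genotypes did not overlap in these last 2 sums. The part of all these marker differences in the results was not tested. These are bulk samples, in which a change in the share of a cell type and a change in RNA per cell cannot be told apart.

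Of the 10 genes, 6 changed between genotypes at an adjusted p under 0.05 (quasi-likelihood test of edgeR, Benjamini-Hochberg adjustment over 14218 genes), 4 upwards and 2 downwards. Over all genes tested, 53.0% did. Of these 6, the 4 that rose, Eif4g2, Eif4a2, Eif4ebp1 and Eif4g3, also passed an absolute log2 fold change of 0.5 and count as called, against 25.3% of all genes. Eif4a1 and Eif4b fell, by less than the threshold for a call. In the TPM, 7 of the 10 genes passed an adjusted p under 0.05 (limma), against 50.7% of all genes tested there, the seventh being Eif4e. Changed genes were thus common throughout the transcriptome, and the counts alone do not set the family apart. Fold changes are given on the log2 scale as 4A1 KO minus control, and their median over all genes was at most 0.03 in size under every setting tried.

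**Figure D1:**
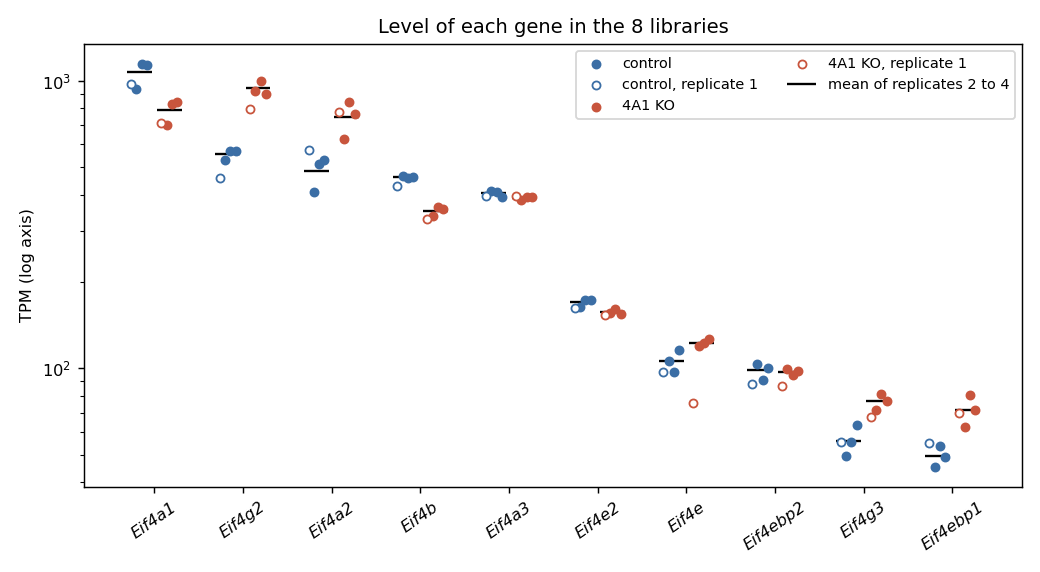
Level of the 10 genes in TPM (log axis) in each of the 8 libraries, ordered by the control mean, with control in blue, 4A1 KO in red, replicate 1 as open circles and the mean of replicates 2 to 4 as a bar. As deposited, Eif4a1 is the highest gene in control at 1070.2 TPM and Eif4g2 in 4A1 KO at 939.9 TPM. With the TPM of Eif4a-ps4 added, each row scaled by its own length, Eif4a1 averages 1034 TPM in 4A1 KO.

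Because TPM are scaled per length, levels can be compared between genes. In control B cells Eif4a1 was the most abundant of the 10 genes at 1070.2 ± 119 TPM (SD, n = 3, as for all means that follow), above Eif4g2 at 556 ± 23.7 TPM in all 4 libraries. Eif4a2 at 483 ± 63.3 TPM and Eif4b at 462 ± 5.17 TPM came next, and the ranges of Eif4g2, Eif4a2 and Eif4b over the 4 libraries overlapped with their neighbours in this order. Below them stood Eif4a3 at 406 ± 10.3 TPM and Eif4e2 at 169 ± 5.60 TPM, each apart from its neighbours. The lower end held Eif4e, Eif4ebp2, Eif4g3 and Eif4ebp1, from 106 ± 9.49 down to 49.4 ± 4.10 TPM, where Eif4e overlapped with Eif4ebp2 and Eif4g3 with Eif4ebp1.

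In 4A1 KO B cells the top of the order differed in the rows as deposited. Eif4g2 stood first at 939.9 ± 50.9 TPM, above Eif4a1 in 4 of 4 libraries, although their ranges over libraries overlapped. Eif4a1 at 790.1 ± 78.1 TPM and Eif4a2 at 745 ± 109 TPM could not be ordered, since Eif4a1 was the higher in 2 of 4 libraries. Both orders could depend on the pseudogene row. With the Eif4a-ps4 TPM added as deposited, Eif4a1 in 4A1 KO was at 921, 896, 1058 and 1149 TPM (1034 ± 128). That was above Eif4g2 in 3 of 4 libraries and above Eif4a2 in 4 of 4. Such sums give the pseudogene's reads more weight, since its row spans 1218 bases and the Eif4a1 transcript 1775. In 4A1 KO its part was 27.9% to 36.3% of Eif4a1 in TPM, but 10.7% to 14.5% in counts normalized to library size. Sums on a common length were not computed, so these orders are not settled. Eif4a3 and Eif4b changed places, at 390.4 ± 4.55 and 353 ± 14.5 TPM. The means of the 5 lowest genes kept the order they had in control, but Eif4e was above Eif4ebp2, and Eif4g3 above Eif4ebp1, in 3 of 4 libraries in place of 4 of 4.

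Eif4a1, the targeted gene, was at 974, 933, 1142 and 1136 TPM in control and at 712, 700.4, 827 and 843 TPM in 4A1 KO. The lowest control library was thus above the highest 4A1 KO library. In the counts the log2 fold change was -0.44 (SE 0.05, edgeR adjusted p = 1.15e-04), which is 0.735 of the control level. The exact two-sided permutation test over the 8 libraries gave p = 0.0286, the smallest value it can give with 4 against 4. The TPM gave the same difference of -0.44 on the log2(TPM + 1) scale (SE 0.04, limma adjusted p = 7.90e-04).

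The row of Eif4a-ps4 held far less in 4A1 KO than in control. It was at 554, 568, 675 and 675 TPM in control and at 209, 195, 231 and 306 TPM in 4A1 KO. In the counts this was a log2 fold change of -1.78 (SE 0.10, edgeR adjusted p = 1.02e-05) and in the TPM -1.41 (SE 0.09, limma adjusted p = 6.85e-04). Its counts normalized to library size (CPM) were 27.7% to 31.1% of those of Eif4a1 in the control libraries and 10.7% to 14.5% in the 4A1 KO libraries. The pseudogene row therefore fell by more than the Eif4a1 row, though no test of that difference was run. When the counts of matching pseudogene rows were added to each gene, an alternative chosen after the data were seen, the log2 fold change of Eif4a1 was -0.66 (SE 0.05, edgeR adjusted p = 2.55e-05) and it passed as called, so that 5 of the 10 genes were called. The values of the other 9 genes moved by at most 0.01.

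**Figure D2:**
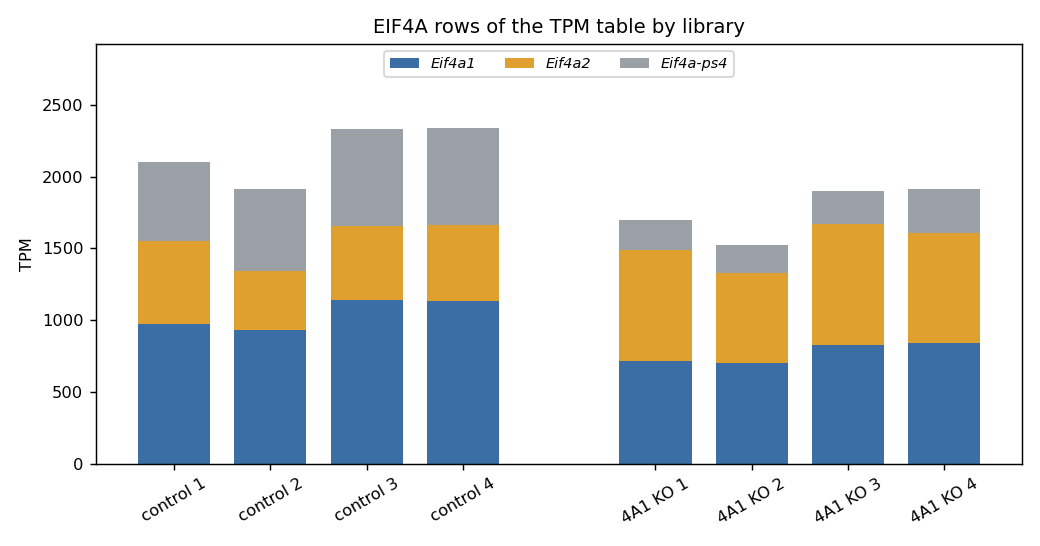
TPM of Eif4a1, Eif4a2 and the pseudogene Eif4a-ps4, stacked, in each of the 8 libraries (vertical axis from 0). The Eif4a1 and Eif4a2 segments together reach 1344 to 1664 TPM in control and 1328 to 1670.4 TPM in 4A1 KO, and the Eif4a-ps4 segment is 554 to 675 TPM in control and 195 to 306 TPM in 4A1 KO.

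Eif4a2, on chromosome 16 (chr16:22925894-22932886), rose in 4A1 KO B cells. It was at 575, 411, 511 and 528 TPM in control and at 779, 628, 843 and 762 TPM in 4A1 KO. The genotypes did not overlap, and control replicate 1 was the highest of its group. The difference on the log2 scale was 0.64 in the counts (SE 0.05, edgeR adjusted p = 3.48e-05), a 1.55-fold higher level, and 0.62 in the TPM (SE 0.05, limma adjusted p = 7.16e-04). Rfc4, which encodes a subunit of the clamp loader and overlaps Eif4a2 on the opposite strand over 1279 exonic bases, moved the other way, with a log2 fold change of -1.02 (SE 0.08, edgeR adjusted p = 2.12e-05). The libraries and the counting were strand-specific. Gm2999, a retrocopy with 9.5% of the Eif4a2 windows, had a log2 fold change of 0.26 in the counts (SE 0.13, adjusted p = 0.131) and of 0.35 in the TPM (SE 0.11, limma adjusted p = 0.0383), from a control level of 6.86 CPM against 487 CPM for Eif4a2.

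The balance between the paralogues was compared as a ratio. That of Eif4a2 to Eif4a1 TPM was 0.59, 0.441, 0.448 and 0.465 in control and 1.09, 0.897, 1.02 and 0.905 in 4A1 KO. The log2 ratio was higher by 1.06 (control -1.15 ± 0.04, 4A1 KO -0.09 ± 0.10; SD, n = 3), and the exact permutation test over 8 libraries gave p = 0.0286 (the smallest it can give), or 0.0571 after adjustment over the 4 measures of balance tested. As a share of both, Eif4a2 made up 31.1% ± 0.594 in control and 48.4% ± 1.80 in 4A1 KO. With the Eif4a-ps4 TPM, scaled by its own shorter row, added to Eif4a1 these shares were 22.0% ± 0.545 and 41.8% ± 2.29.

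The summed TPM of Eif4a1 and Eif4a2 was 1554 ± 182 in control and 1535 ± 182 in 4A1 KO. The log2 difference was -0.02, and no difference between genotypes was detected (exact permutation p = 0.743, adjusted 0.743). This could depend on the pseudogene. With the Eif4a-ps4 TPM added as deposited, the sum was 2193 ± 243 TPM in control and 1779 ± 221 TPM in 4A1 KO, a log2 difference of -0.30. It was lower in 4A1 KO in each of the 4 same-numbered pairs. The genotypes were apart by a narrow margin, with the lowest control library at 1912 TPM and the highest 4A1 KO library at 1911 TPM (exact permutation p = 0.0286 over 8 libraries). In these sums the pseudogene's TPM are scaled by its own row of 1218 bases, against 1775 for the Eif4a1 transcript. Sums on a common length were not computed, so this separation is not established.

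Eif4a3, on chromosome 11 (chr11:119177570-119190933), did not pass the test. It was at 395, 413, 411 and 394 TPM in control and at 398, 385, 392 and 394 TPM in 4A1 KO, with overlapping genotypes. On the log2 scale the difference was -0.07 in the counts (SE 0.04, edgeR adjusted p = 0.198) and -0.06 in the TPM (SE 0.04, limma adjusted p = 0.307). Its retrocopy Gm5576, with 15.6% of the Eif4a3 windows, had -0.29 in the counts (SE 0.16, adjusted p = 0.147) and -0.20 in the TPM (SE 0.12, limma adjusted p = 0.206), at 3.46 CPM in control.

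Of 10 exon junction complex and nonsense-mediated decay genes, 3 rose and 2 fell at an adjusted p under 0.05 (50.0% of the list against 53.0% of all genes) and 1 was called (10.0% against 25.3%), with a median log2 fold change of 0.06 against 0.01 over all genes tested. Upf3a, a decay factor that binds the complex, was the one called, at 0.59 (SE 0.06, edgeR adjusted p = 6.05e-05). Its paralogue Upf3b had -0.46 (SE 0.08, adjusted p = 0.00126). Casc3 and Rbm8a, both core subunits beside EIF4A3, had 0.43 and 0.23, and Magoh, the partner of RBM8A, had -0.07 (SE 0.05, adjusted p = 0.293).

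Eif4b, on chromosome 15 (chr15:101982075-102005614), which encodes a stimulating cofactor of the helicase, fell. It was at 429, 467, 457 and 461 TPM in control and at 329, 337, 365 and 358 TPM in 4A1 KO. All 4A1 KO libraries were below all control libraries. On the log2 scale the difference was -0.38 in the counts (SE 0.05, edgeR adjusted p = 2.00e-04), or 0.767 of the control level, and -0.39 in the TPM (SE 0.05, limma adjusted p = 0.00154). The related cofactor Eif4h fell as well, from 435 ± 7.46 to 367 ± 21.5 TPM, with a log2 fold change of -0.27 in the counts (SE 0.05, adjusted p = 0.00132) and no overlap between genotypes.

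**Figure D3:**
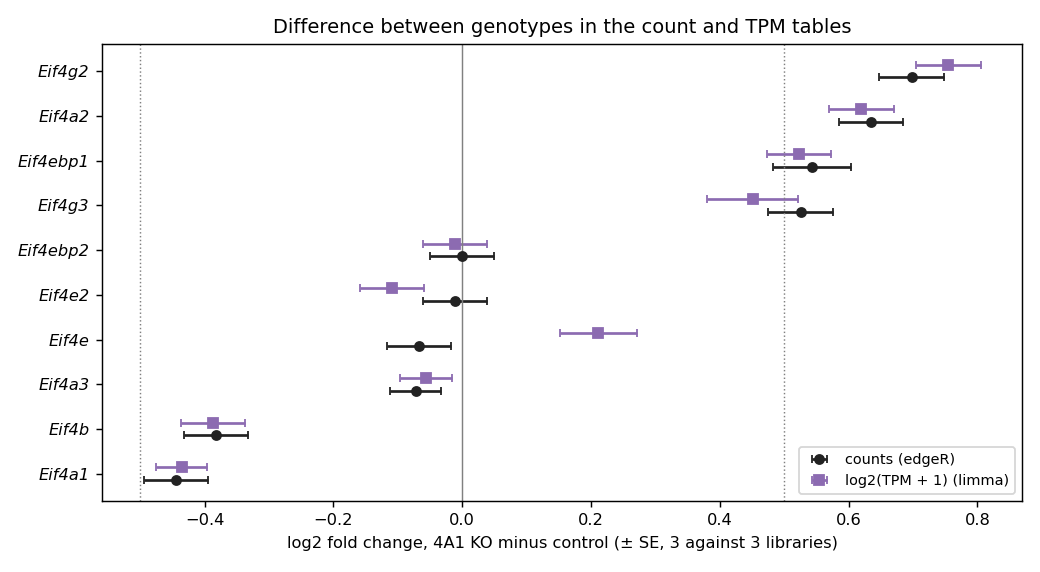
log2 fold change of the 10 genes, 4A1 KO minus control, with its standard error (3 against 3 libraries), from the counts with edgeR (black circles) and from log2(TPM + 1) with limma (purple squares), with dotted lines at 0.5 in size. Eif4g2 is highest at 0.70 in the counts and 0.76 in the TPM, and Eif4e lies on different sides of 0, at -0.07 in the counts and 0.21 in the TPM.

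Eif4e, the cap-binding subunit on chromosome 3 (chr3:138231936-138265457), differed between the tables. In the counts it was at 188, 189, 219 and 208 CPM in control and at 189, 190.5, 199.5 and 196 CPM in 4A1 KO, and the genotypes overlapped. Their log2 fold change was -0.07 (SE 0.05, edgeR adjusted p = 0.277). In the TPM it was at 97.1, 105, 96.7 and 116 in control and at 75.5, 119, 122 and 126 in 4A1 KO. There replicate 1 of 4A1 KO stood below all other libraries and replicates 2 to 4 above all. The TPM difference over replicates 2 to 4 was 0.21 (SE 0.06, limma adjusted p = 0.0248), it was 0.21 with adjusted p = 0.0703 without the replicate block, and over all 8 libraries it was 0.07 (SE 0.11, adjusted p = 0.606). It also missed the threshold without replicate 2 (adjusted p = 0.0631), without replicate 3 (0.125) and without a filter on mean TPM (0.0811), and passed without replicate 4 (0.0273) and with a pseudocount of 0.1 (0.0258). Its retrocopy Gm7327, with 6.8% of the Eif4e windows, had -0.11 in the counts (SE 0.13, edgeR adjusted p = 0.503) and -0.14 in the TPM (SE 0.08, limma adjusted p = 0.22), at 5.57 CPM in control against 205 CPM for Eif4e. The Eif4e difference passed in the TPM table alone, and there under 2 of 7 alternatives.

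Eif4e2, on chromosome 1 (chr1:87141621-87168210), encodes 4EHP, a cap-binding protein that does not bind EIF4G and acts in translational repression. It was at 162, 163, 173 and 172 TPM in control and at 152, 155, 161 and 154 TPM in 4A1 KO. The TPM did not overlap, but by a small margin, and the limma test on replicates 2 to 4 did not pass (-0.11, SE 0.05, adjusted p = 0.0912). In all 8 libraries it did (-0.10, SE 0.04, adjusted p = 0.0404). The counts gave -0.01 (SE 0.05, edgeR adjusted p = 0.858), with overlapping genotypes. Of the partners of 4EHP, Gigyf1 was called higher in 4A1 KO, with a log2 fold change of 0.91 in the counts (SE 0.06, adjusted p = 1.71e-05), while its paralogue Gigyf2 had -0.16 (SE 0.05, adjusted p = 0.0248).

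Both scaffold genes of the group rose. Eif4g2, on chromosome 7 (chr7:110666957-110682244), encodes DAP5, a relative of EIF4G that lacks the EIF4E-binding region and serves cap-independent and other non-canonical initiation. It was at 457, 529, 571 and 569 TPM in control and at 797, 923, 997 and 899 TPM in 4A1 KO. Every 4A1 KO library was above every control library, with replicate 1 the lowest of each genotype. The log2 fold change in the counts was 0.70 (SE 0.05, edgeR adjusted p = 1.49e-05), a 1.62-fold higher level, and 0.76 in the TPM (SE 0.05, limma adjusted p = 6.85e-04).

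Eif4g3, on chromosome 4 (chr4:137720333-137935819), encodes a full-length EIF4G paralogue. It was at 55.1, 49.5, 55.1 and 63.2 TPM in control and at 67.5, 71.6, 80.9 and 77.0 TPM in 4A1 KO, without overlap. On the log2 scale the difference was 0.53 in the counts (SE 0.05, edgeR adjusted p = 7.32e-05) and 0.45 in the TPM (SE 0.07, limma adjusted p = 0.0034). Its call was near the threshold of 0.5, since it was 0.49 in the counts of all 8 libraries and 0.49 without replicate 3, while the adjusted p passed in both. Eif4g1, the main scaffold of EIF4F, did not pass, at 469 ± 32.2 TPM in control and 512 ± 45.2 TPM in 4A1 KO (log2 fold change of the counts 0.13, SE 0.06, edgeR adjusted p = 0.102).

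The ratio of summed Eif4g2 and Eif4g3 to Eif4g1 TPM was 1.27, 1.23, 1.44 and 1.26 in control and 2.05, 2.16, 1.98 and 1.84 in 4A1 KO. The libraries of the genotypes did not overlap. The log2 ratio was higher by 0.61 in 4A1 KO (0.39 ± 0.12 against 0.99 ± 0.12, SD, n = 3; exact permutation p = 0.0286 over 8 libraries, adjusted 0.0571).

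**Figure D4:**
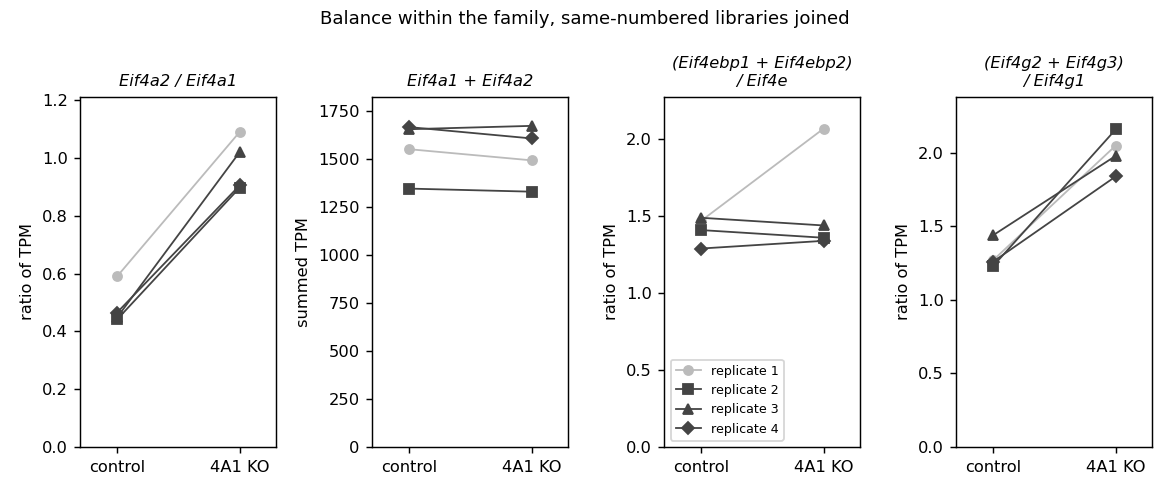
Ratios or sums of TPM in the 8 libraries, with same-numbered control and 4A1 KO libraries joined and replicate 1 in grey (vertical axes from 0). The ratio of Eif4a2 to Eif4a1 and that of Eif4g2 and Eif4g3 to Eif4g1 are higher in 4A1 KO in all 4 pairs, the sum of Eif4a1 and Eif4a2 overlaps, and the ratio of the 4E-binding proteins to Eif4e is apart only in 4A1 KO replicate 1, at 2.07.

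Of the 4E-binding proteins, Eif4ebp1 passed the test and Eif4ebp2 did not. Eif4ebp1, on chromosome 8 (chr8:27750350-27805206), was at 55.0, 45.4, 53.6 and 49.2 TPM in control and at 69.7, 62.5, 80.9 and 71.4 TPM in 4A1 KO. It rose, with no overlap between genotypes and a log2 fold change of 0.54 in the counts (SE 0.06, edgeR adjusted p = 7.53e-05), a 1.46-fold higher level, and 0.52 in the TPM (SE 0.05, limma adjusted p = 0.00105). Eif4ebp2, on chromosome 10 (chr10:61264032-61288567), was at 87.8, 103, 91.0 and 100.1 TPM in control and at 86.7, 99.2, 94.8 and 97.5 TPM in 4A1 KO. The difference on the log2 scale was 0.00 in the counts (SE 0.05, edgeR adjusted p = 0.99), and the genotypes overlapped. The call of Eif4ebp1 was near the threshold of 0.5, at 0.50 in the counts of all 8 libraries, and in the TPM it was below it in all 8 libraries (0.48) and without replicate 3 (0.49), while the adjusted p passed in each. No test of the difference between both genes was run.

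The ratio of summed Eif4ebp1 and Eif4ebp2 to Eif4e TPM was 1.47, 1.41, 1.49 and 1.29 in control and 2.07, 1.36, 1.44 and 1.34 in 4A1 KO. The log2 ratio over replicates 2 to 4 was 0.48 ± 0.11 in control and 0.46 ± 0.05 in 4A1 KO, and no difference was detected (exact permutation p = 0.743 over 8 libraries, adjusted 0.743). The log2 difference of -0.02 was 0.11 over all 8 libraries and 0.16 with CPM in place of TPM. The high value of 4A1 KO replicate 1 came with its low Eif4e TPM.

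Of the 20 other EIF4F factors and regulators, 19 could be tested, since Eif4e1b had no reads in any of the libraries. Of these, 5 rose and 6 fell at an adjusted p under 0.05 (57.9% of the list against 53.0% of all genes), 4 were called (21.1% against 25.3%), and the median log2 fold change was 0.08 against 0.01 over all genes tested. Called higher beside Gigyf1 was Paip1, which encodes a coactivator that binds poly(A)-binding protein and EIF4A, at 0.67 (SE 0.07, edgeR adjusted p = 6.34e-05). Called lower were Mknk2, an EIF4E kinase, at -0.83 (SE 0.06, adjusted p = 1.71e-05), and Cyfip1, which encodes an EIF4E-binding repressor, at -0.56 (SE 0.10, adjusted p = 0.00149). Mknk1, the other kinase that phosphorylates EIF4E, had 0.08 (SE 0.06, adjusted p = 0.316), and Pdcd4, an inhibitor that binds EIF4A, had 0.13 (SE 0.06, adjusted p = 0.0939). Eif4enif1, the transporter of EIF4E into the nucleus, rose by less than the call threshold, at 0.37 (SE 0.05, adjusted p = 3.08e-04).

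The difference between genotypes was compared between sexes and batches in all 8 libraries. Few libraries of a genotype shared a sex or batch, replicate 1 included. The standard errors were 0.08 to 0.17, so differences of that size would be missed. The interaction log2 values of the 10 genes lay between -0.12 and 0.12 for males minus females, and between -0.12 and 0.16 for batch B minus batch A. None passed (edgeR adjusted p of 1 for sex and 0.999 for batch), and over all 14211 genes 0 passed for sex (405 at an unadjusted p under 0.05) and 1 for batch (610 at an unadjusted p under 0.05). Within batch B alone, replicates 3 and 4, the log2 fold changes of the counts were -0.45 for Eif4a1, 0.66 for Eif4a2, -0.33 for Eif4b, 0.69 for Eif4g2, 0.50 for Eif4g3 and 0.58 for Eif4ebp1, and each had an adjusted p under 0.05.

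As a description of likeness, the genes with the highest Pearson r to Eif4a1 over the CPM (log2) of the 8 libraries, among 8382 genes with at least 10 CPM, were Ddx56 (r = 0.996), which encodes a nucleolar DEAD-box helicase, Rexo4 (r = 0.991) and Zfp207 (r = 0.990). For Eif4a2 they were Mafg (r = 0.996), a small Maf transcription factor, Ing5 (r = 0.988) and Aoc2 (r = 0.987). The genotypes did not overlap in the CPM of either gene, so these values hold the difference between genotypes together with the variation among libraries of a genotype. The part of each in r was not tested.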

How the data were processed

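RNA of 8 libraries of activated splenic B cells, 4 control and 4 4A1 KO, was analysed. The authors trimmed the stranded paired reads with Trim Galore 0.6.6, aligned them to GRCm39 with HISAT2 2.1.0, counted them with Seqmonk over merged isoforms of each gene, and deposited the raw counts. The authors also deposited TPM, computed with StringTie 2.1.1. The treatment of multi-mapped reads is not given in the sources used here. Genes were matched by identifier to GENCODE M39 of GRCm39 (52647 of 53242, and all 10 members).

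Counts were filtered with filterByExpr, scaled by TMM and tested in edgeR 4.0.16 (quasi-likelihood, two-sided) in R 4.3.3, with batch and sex as covariates. In replicates 2 to 4 these covariates equal the replicate number as a block. The pairing rests on the batch and sex in the labels, and same-numbered libraries correlated in their deviations from the genotype means (lowest r 0.304). Calls required an adjusted p below 0.05 together with a log2 fold change beyond 0.5 in size. TPM were compared as log2(TPM + 1) with limma 3.58.1 over the 12976 genes that averaged 1 TPM or more, which understates changes of low genes. Of these, 50.7% passed an adjusted p under 0.05. Ratios were compared by exact two-sided permutation over the 8 libraries, with 4 measures adjusted together. Pseudogenes were matched with blastn 2.17.0 at 90% identity over 200 bases or more. The self-test ran on simulated counts.

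The members, partner genes and marker lists were chosen with earlier results of these data known. Named are all 10 members, called genes of the partner lists with Eif4g1 and Eif4h in any case, pseudogenes that averaged 1 CPM or more, and the 3 genes most correlated with Eif4a1 and with Eif4a2. Partner genes that were not called, single B cell and plasma cell markers and Rfc4 were added after their values were seen. Alternatives were other size factors, DESeq2 1.42.0, no filter, no block, all 8 libraries, leaving out each replicate, a TPM pseudocount of 0.1, CPM in place of TPM and added pseudogene values. A gene of the B cell marker list is not reported here and was left out of its sum.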

Additional observations from a re-analysis of the deposited data

Results flagged for a closer look

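Of 60 sets of 4 libraries examined for a library far from the others (10 genes, Eif4g1, Eif4h and Eif4a-ps4 in CPM and TPM, and 4 measures of balance, each within a genotype), 3 held one by Dixon's test, and chance gives about 3.00. All were replicate 1, the libraries that the study left out. Control replicate 1 had 1691 CPM of Eif4g2 against 1970 in the nearest library (gap over range 0.910). Replicate 1 of 4A1 KO had 75.5 TPM of Eif4e against 119 in the nearest (0.856), and its log2 ratio of summed Eif4ebp1 and Eif4ebp2 to Eif4e was 1.05 against 0.523 (0.835). The last is computed from the same Eif4e value.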

How the results depend on the processing

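The number of genes called was 3596 and lay between 2587 (DESeq2 with normal shrinkage) and 3691 (no low-count filter) under the alternatives that kept all replicates of the main comparison, and between 3083 and 3821 when 1 replicate was left out. The 6 genes of the family with an adjusted p under 0.05 numbered 6 under all 10 alternatives of the counts, and 4 were called in all except all 8 libraries and without replicate 3, with 3 each, and with pseudogene counts added, with 5. Without the replicate block, 3000 genes and 4 of the family were called, and the adjusted p under the pairing was the smaller for each of the 6. In TPM 7 of the family passed, with 6 to 7 under the alternatives, because Eif4e passed in some and not in others and Eif4e2 passed in all 8 libraries. Of 100 single fold changes under the alternatives of the counts, all 100 stayed on their side of an adjusted p of 0.05 and 93 kept their sign. The call changed in 3, as Eif4g3 went to 0.49 in all 8 libraries and without replicate 3, and Eif4a1 to -0.66 with pseudogene counts added. The sign changed in 4 of Eif4ebp2, from 0.00 to between 0.00 (all 8 libraries) and 0.02 (upper quartile and without replicate 2), 0.01 without replicate 4, and in 3 of Eif4e2, from -0.01 to 0.01 (upper quartile and all 8 libraries) or 0.02 (without replicate 4, with a range of -0.04 to 0.02 when 1 replicate was left out). None of these 7 passed. Adding the Eif4a-ps4 TPM, scaled by its own shorter row, moved the log2 ratio of Eif4a2 to Eif4a1 from 1.06 to 1.35. It moved the log2 difference of their sum from -0.02 to -0.30. The log2 difference of the 4E-binding protein ratio moved from -0.02 to 0.11 in all 8 libraries and to 0.16 in CPM, and the cause was not tested. With 3 libraries per genotype, small differences such as those of Eif4a3 and Eif4e2 could not be resolved from 0.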
